A study of Mus musculus with 4 samples.

Results

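The forkhead genes other than the FoxO genes were described here in mandible and maxilla, called jaw from here on, and in brain of FoxO6-/- and WT mice. Members were all genes whose annotated symbol is Fox followed by a letter and a number, with the Foxo symbols left out. Of 18193 genes with a probe set of 1 gene, 35 were members. Where a gene had several probe sets the brightest one by its mean of 4 arrays stood for it. The mean signal of 21 members was at or above the floor, as it was for 12569 of all genes. The floor was a signal of 101, which is the median over all arrays.

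Forkhead factors share a DNA binding domain of the winged helix fold, named after a fly gene whose loss changes the head. Within the family Foxa factors can bind closed chromatin, Foxc, Foxd and Foxf factors pattern mesenchyme, Foxp factors act mostly as repressors and Foxj1 switches on the genes of motile cilia. In the head, loss of Foxc1, Foxc2 or Foxf2 in mice disturbs the skull, the eye or the palate, and Foxp1 and Foxp2 are known from neurons of the forebrain.

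RNA was measured on Affymetrix GeneChip mouse arrays, with 1 array for each of the 4 groups: FoxO6-/- jaw, WT jaw, FoxO6-/- brain and WT brain. Signals are given in that order throughout. In FoxO6-/- mice a LacZ reporter and a neomycin resistance gene take the place of the FoxO6 coding region. The mice were kept on a C57BL/6 background, and the labels place all tissue at postnatal day 0 whereas the text of the paper places the jaw tissue at a late embryonic stage. Per the methods, RNA of 4 animals was combined for the jaw, and the mutants are described as heterozygous as well as null. No group has a replicate array, so genotype ratios within a tissue carry no SD and no test. For jaw against brain the arrays of the 2 genotypes served as 2 arrays per tissue. The p-values then rest on how far the tissue difference disagrees between the genotypes (1 residual degree of freedom). That spread is drawn toward the one of all genes (2.40 prior degrees of freedom), and no spread between animals is measured.

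The arrays shared 1 trimmed mean and had medians of 91.9 to 110.1. Markers of neurons separated the tissues as labelled, with summed signals of 2427 and 3683 in jaw and of 44706.5 and 35718 in brain over 7 genes. Markers of bone matrix were lower in brain but far from absent there, since the 5 measured genes summed to 44273 and 40150.0 in jaw and to 25014 and 26292 in brain, and 2 of them were called higher in jaw. In such bulk samples fewer cells of a type and less RNA per cell cannot be told apart. Foxo6 was not analysed here, so the deletion itself was not checked on these arrays.

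**Figure D1:**
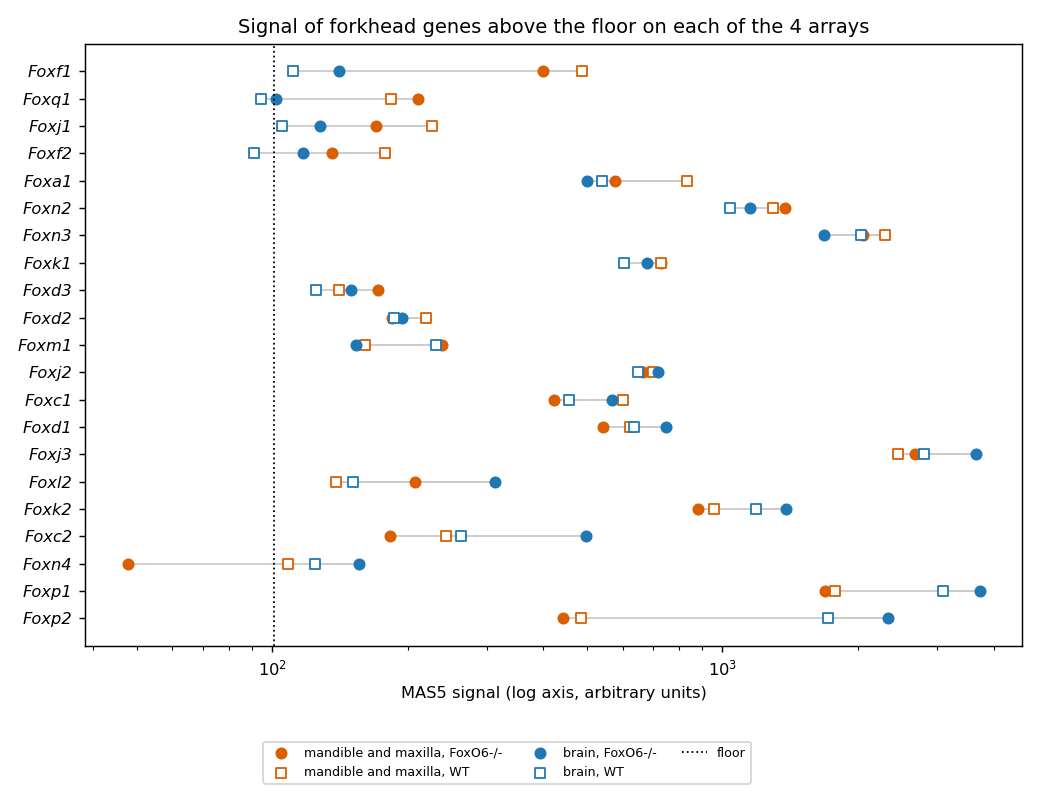
Signal of the 21 forkhead genes at or above the floor on each of the 4 arrays (log axis, arbitrary units, 1 point per array, grey lines join the lowest and highest array of a gene). Foxp2 and Foxp1 are brighter on both brain arrays and Foxf1 and Foxq1 on both jaw arrays, and levels of different genes come from different probes and cannot be ranked.

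The first question was which forkhead genes separate jaw from brain. Foxf1 and Foxq1 were higher in jaw and Foxp2 was higher in brain, and no other of the 21 members passed the test. These 3 calls are 14.3% of the members, and 15.2% of all genes tested were called in the same fit by limma. Of the calls 9.52% of members against 6.48% of all genes were higher in jaw, and 4.76% against 8.73% higher in brain. The share of called genes was thus no greater among forkhead genes than in the background. The median difference was 0.05 on the log2 scale both for the members and for all genes.

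Foxf1, which hedgehog signals switch on in embryonic mesenchyme, had signals of 399 and 488 in jaw and of 141 and 111 in brain. Both jaw arrays were above both brain arrays, and the groups did not overlap. Its signal was 3.53-fold higher in jaw, a log2 difference of 1.82 ± 0.22 (SE, n = 2 arrays per tissue), with an adjusted p of 0.0267 in limma. Among the 21 members tested Foxf1 was the only one at least 2-fold higher in jaw in both genotypes, where 5.37% of all genes were. The second Foxf1 probe set was below the floor, at 9.69 and 56.5 in jaw and 33.9 and 7.37 in brain. Its log2 ratio of jaw over brain was 2.94 in WT and -1.81 in FoxO6-/-.

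Foxq1, a gene of hair shafts and stomach lining, had signals of 211 and 184 in jaw and of 102 and 94.6 in brain. The brain arrays stood at the floor, so the brain level is close to the limit of what the arrays resolve. The log2 difference was 1.0 ± 0.15 (SE, n = 2 arrays per tissue), 2.0-fold, with an adjusted p of 0.0363 in limma. With 1 array left out the adjusted p in limma was 0.0344 without WT jaw, and the call was lost at 0.0637 without FoxO6-/- jaw, 0.0616 without FoxO6-/- brain and 0.0749 without WT brain. Its second probe set also read higher in jaw, by 0.55 on the log2 scale, but did not pass (adjusted p of 0.243 in limma over every probe set).

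Foxj1, the switch for motile cilia, had signals of 170.0 and 226 in jaw and of 128 and 105 in brain. The jaw arrays were the brighter ones here too, but the log2 difference of 0.76 ± 0.24 (SE, n = 2) had an adjusted p of 0.135 in limma. Foxf2, needed for the palate and made by pericytes of the brain, had signals of 136 and 178 in jaw and of 117 and 91.0 in brain, with a log2 difference of 0.59 ± 0.25 (SE, n = 2). Its adjusted p was 0.211 in limma. Together with Foxf1, Foxq1, Foxa1, Foxk1, Foxn2 and Foxn3 these made 8 of 21 members with both jaw arrays above both brain arrays, 38.1% against 36.4% of all genes.

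Foxp2, a repressor known for its part in speech and in motor circuits, had signals of 444 and 486 in jaw and of 2337 and 1716 in brain. Brain was higher in each genotype by more than 2-fold, which 8.46% of all genes also were. Its signal was 4.31-fold higher in brain, with a log2 difference of jaw over brain of -2.11 ± 0.21 (SE, n = 2 arrays per tissue) and an adjusted p of 0.0194 in limma. Of its 5 probe sets above the floor, all read lower in jaw in the mean over the genotypes, with log2 differences from -2.69 to -0.70. When every probe set was tested 4 passed. The dimmest, at 106 in FoxO6-/- jaw and 100 in FoxO6-/- brain, was lower in jaw in WT only.

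Foxp1, its close relative, had signals of 1689 and 1775 in jaw and of 3730.25 and 3088 in brain. The brain arrays were higher without overlap, but the log2 difference of -0.97 ± 0.17 (SE, n = 2 arrays per tissue) had an adjusted p of 0.0511 in limma, just past the threshold of 0.05. It lay under the threshold in 7 of 13 alternative settings, in which it ranged from 0.0116 to 0.364. Quantile normalization and median centring both brought it under, so that the split of called members into higher in jaw and higher in brain was 2 and 1 as deposited and 2 and 2 under either of them.

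Among 7 probe sets of Foxp1 above the floor 6 read lower in jaw and 1 read higher. The exception, the dimmest of the 7, had signals of 163 and 283 in jaw and of 72.1 and 149 in brain. Its FoxO6-/- brain signal was below the floor. It had a log2 difference of 1.05 and an adjusted p of 0.0432 in limma over every probe set. Another probe set, at 514 and 526 in jaw and 1141 and 958 in brain, passed in the other direction with a log2 difference of -1.01 and an adjusted p of 0.0480. Foxp1 was thus called higher in brain or higher in jaw depending on the probe set, and which transcripts each detects was not tested.

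**Figure D2:**
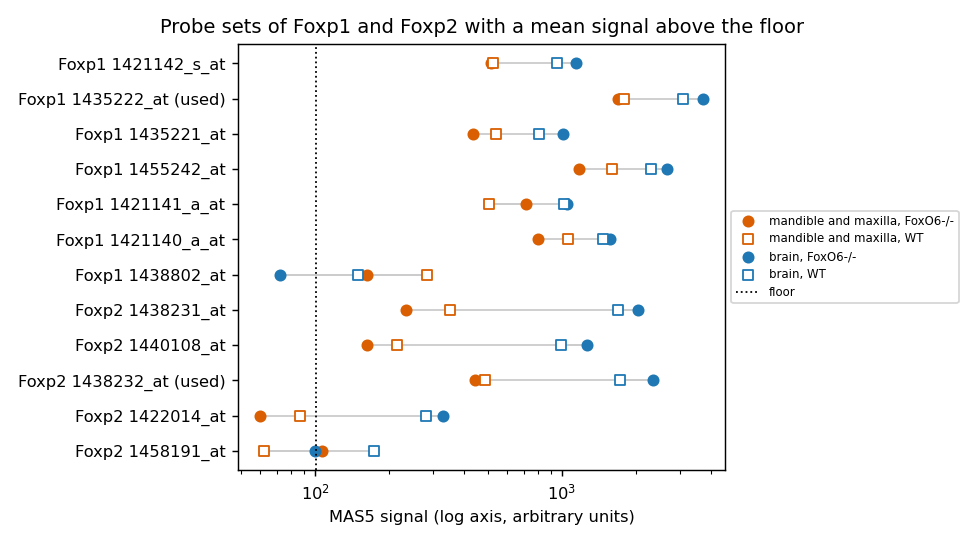
Signals of each probe set of Foxp1 and Foxp2 with a mean at or above the floor, on the 4 arrays (log axis, arbitrary units, 1 point per array). All 5 probe sets of Foxp2 have a lower mean in jaw, while 1 of 7 of Foxp1 is brighter in jaw.

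RefSeq gives 3 transcription starts for Foxp1 in assembly GRCm38.p6, and the 250 bases before each are shown because the probe sets of this gene disagree. Capitals mark TAAACA or its reverse complement TGTTTA, the core letters that forkhead factors bind, which were chosen after the letters had been read.
Foxp1, first start, chr6:99520994-99521243, minus strand: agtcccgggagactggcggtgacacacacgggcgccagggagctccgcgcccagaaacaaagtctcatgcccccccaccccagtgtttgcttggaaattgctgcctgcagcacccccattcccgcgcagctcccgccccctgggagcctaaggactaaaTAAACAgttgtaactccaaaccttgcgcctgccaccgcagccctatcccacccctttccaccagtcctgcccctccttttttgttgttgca
Foxp1, second start, chr6:99266516-99266765, minus strand: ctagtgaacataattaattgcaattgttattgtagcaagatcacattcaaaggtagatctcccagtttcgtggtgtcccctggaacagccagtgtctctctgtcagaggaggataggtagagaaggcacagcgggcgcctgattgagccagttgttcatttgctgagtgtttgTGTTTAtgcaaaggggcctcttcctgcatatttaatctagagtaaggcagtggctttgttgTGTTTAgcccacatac
Foxp1, last start, chr6:99028299-99028548, minus strand: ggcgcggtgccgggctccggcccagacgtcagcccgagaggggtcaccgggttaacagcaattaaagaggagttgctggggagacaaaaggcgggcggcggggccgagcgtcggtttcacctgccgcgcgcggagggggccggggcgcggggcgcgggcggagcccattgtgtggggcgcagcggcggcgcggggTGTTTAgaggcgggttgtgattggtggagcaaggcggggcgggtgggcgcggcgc
The letters occur in all 3 windows, and in the second window 2 times. Of all 32851 RefSeq windows of this length 12.0% hold TAAACA on either strand. Promoter windows were given for 23 members, and 3 of them, Foxa1, Foxp1 and Foxp3, hold the letters in 5 of 28 windows, or 17.9%. A match is a description of the letters and says nothing of binding.

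**Figure D3:**
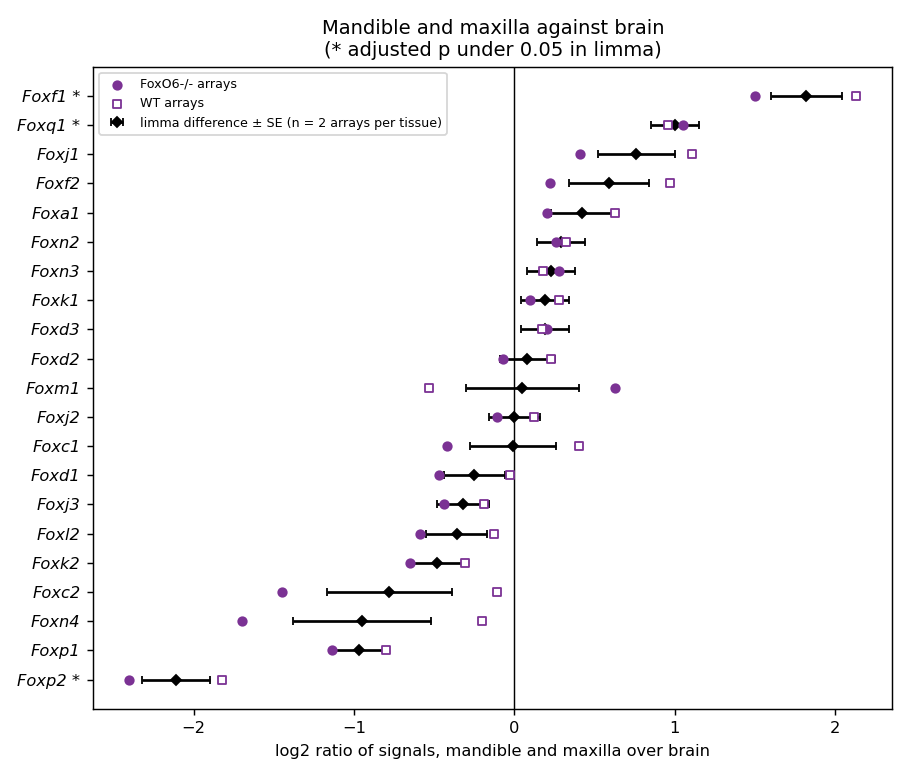
Log2 ratio of signals in jaw over brain for the 21 forkhead genes at or above the floor, within WT and FoxO6-/- arrays (squares and circles), with the limma difference (diamonds, bars are SE, n = 2 arrays per tissue). Foxf1 at 1.82 and Foxp2 at -2.11 stand at the ends, and for Foxc1, Foxd2, Foxj2 and Foxm1 the genotypes lie on either side of 0.

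Besides Foxp1 and Foxp2, both brain arrays were above both jaw arrays for Foxc2, Foxd1, Foxj3, Foxk2 and Foxn4. That made 7 of 21 members, 33.3% against 29.1% of all genes. Foxn4, which directs interneurons and cells of the retina, had signals of 47.8 and 108 in jaw and of 156 and 124 in brain. The FoxO6-/- jaw array was the only one of the 4 below the floor. The log2 difference of -0.95 ± 0.43 (SE, n = 2) had an adjusted p of 0.234 in limma, and it became 0.0193 without WT jaw, where the alternatives for this gene ranged from 0.0193 to 0.429. Foxc2, a factor of head mesenchyme and lymph vessels, had a log2 difference of -0.78 ± 0.39 (SE, n = 2) and an adjusted p of 0.266. Foxk2, a widely expressed factor tied to metabolism, had a difference of -0.48 ± 0.17 (adjusted p of 0.164 in limma) at the probe set used, while its 5 probe sets above the floor ranged from -0.48 to 1.12. The probe set at 1.12 was called higher in jaw (adjusted p of 0.0449 in limma over every probe set), opposite to the one used. It read 117 and 159 in jaw and 47.1 and 83.5 in brain, so both of its brain signals were below the floor.

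The remaining members differed less between the tissues. The tissue differences of Foxa1, Foxc1, Foxd1, Foxd2, Foxd3, Foxj2, Foxj3, Foxk1, Foxl2, Foxm1, Foxn2 and Foxn3 lay between -0.36 (Foxl2) and 0.42 (Foxa1) on the log2 scale. None of these 12 had an adjusted p below 0.229 in limma. Foxn3, a repressor tied to the cell cycle checkpoint, read 2048, 2300.1, 1681 and 2036, and its 4 probe sets above the floor were all slightly higher in jaw, by 0.08 to 0.38. Foxc1, which acts with Foxc2 in the mesenchyme of the skull and the eye, read 423, 601, 568 and 456. Its arrays overlapped between the tissues, with a log2 difference of -0.01 ± 0.27 (SE, n = 2).

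The second question was whether forkhead genes differ between FoxO6-/- and WT. Over both tissues 0 of 21 members passed limma, as did 0 of 12569 genes. At an unadjusted p under 0.05 there was 1 member, Foxl2, 4.76% of the members, against 588 genes or 4.68% of all. The fit reads unequal ratios in jaw and brain as error. In it the highest log2 differences were 0.81 for Foxl2, 0.27 for Foxd3 and 0.26 for Foxj3. The lowest were -0.43 for Foxn4, -0.32 for Foxa1 and -0.22 for Foxn3. With 1 array left out genotype was the only term, so differences between the tissues also entered the values. Foxa1 was then at -0.01 without WT jaw, Foxj3 at 0.03 and Foxn3 at -0.08 without FoxO6-/- brain, and Foxn4 at 0.42 without FoxO6-/- jaw. A part of the single array and a part of the missing tissue term cannot be told apart in these shifts.

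Foxl2, which is known from the pituitary, the eyelid and the ovary, had signals of 207, 139, 313 and 151. FoxO6-/- was higher than WT in both tissues, as for 29.0% of all genes, by 1.49-fold in jaw and 2.07-fold in brain. The log2 difference over both tissues was 0.81 ± 0.19 (SE, n = 2 arrays per genotype), 1.76-fold, with an adjusted p of 0.902 in limma, and of 0.616 to 1.0 over 11 alternatives. Its second probe set was below the floor on all arrays, with signals from 8.07 to 44.3. Beside Foxl2, measured markers of the pituitary summed to 120.2, 123, 5491 and 3503 over 6 genes, and those of the lens to 98.2, 67.1, 20901.5 and 7086 over 5 genes, each higher on the FoxO6-/- brain array than on the WT one. Their part in the Foxl2 signal was not tested.

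Foxl2 shares its locus with the noncoding gene Foxl2os, whose start lies 296 bases away on the opposite strand. The 250 bases before the Foxl2 start, shown because Foxl2 was the member past 2-fold, hold no TAAACA.
Foxl2, chr9:98955357-98955606, plus strand: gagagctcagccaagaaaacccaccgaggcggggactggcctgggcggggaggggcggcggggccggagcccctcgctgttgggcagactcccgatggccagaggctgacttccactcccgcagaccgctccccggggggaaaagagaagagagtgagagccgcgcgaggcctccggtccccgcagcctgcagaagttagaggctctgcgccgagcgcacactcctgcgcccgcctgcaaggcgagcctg
The window is 70.8% G or C, where the median of all windows is 52.4%. Foxl2os itself read 35.3, 105, 62.6 and 88.0 and was below the floor on all arrays but WT jaw.

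In jaw 0 of 22 members at or above the floor there were 2-fold apart, where 0.591% of all genes were higher and 1.69% lower in FoxO6-/-. For 15 of 22 members FoxO6-/- read below WT, 68.2% against 51.3% of all genes. The median was -0.12 for the members and -0.01 for all genes as deposited, whereas median centring moved the median of all genes to 0.12 and that of the members to 0.01, with 10 of 22 below 0. For scale, the same ratio read from a second probe set of a gene differed with an SD of 0.49 on the log2 scale over 5031 genes. All members but Foxa1, Foxc1, Foxl2 and Foxm1 lay inside that SD.

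The lowest ratios in jaw were those of Foxa1, Foxc1 and Foxc2. Foxa1, a factor that opens chromatin in gut, airway and midbrain, read 576 against 836 in WT, at a log2 ratio of -0.54. Foxc1 was at -0.50, and its second probe set gave -0.51. Foxc2, at 182 and 244, gave -0.42. The ratio of Foxn4 was -1.18, but its mean over the jaw arrays was below the floor.
The window before the Foxa1 start is shown because Foxa1 had the lowest ratio in jaw and holds the longer letters GTAAACA, which no other member window held. They include the capitalised TAAACA.
Foxa1, chr12:57546112-57546361, minus strand: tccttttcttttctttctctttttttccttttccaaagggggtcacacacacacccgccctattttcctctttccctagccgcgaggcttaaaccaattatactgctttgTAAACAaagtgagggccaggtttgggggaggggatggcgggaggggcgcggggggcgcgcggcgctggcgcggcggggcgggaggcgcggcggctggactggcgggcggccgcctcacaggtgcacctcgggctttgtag
GTAAACA on either strand occurs in 3.57% of member windows and 3.17% of all windows.

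The highest ratios in jaw were those of Foxl2 at 0.58, Foxm1 at 0.57 and Foxd3 at 0.29. Foxm1, which drives genes of mitosis, read 238 in FoxO6-/- and 161 in WT jaw. Foxd3, a factor of neural crest, read 172 and 141. Foxm1 went the other way in brain, with 154 against 232 in WT, at a log2 ratio of -0.59. Its other probe sets were below the floor, and the brightest of them gave -0.11 in jaw and -0.25 in brain.

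In brain 1 of 21 members, Foxl2, was at least 2-fold higher in FoxO6-/-, where 1.13% of all genes were, and 0 were 2-fold lower, where 2.03% were. These 21 were at or above the floor in brain, so they include Foxa2 and leave out Foxq1. The ratio was above 0 for 18 of 21 members, 85.7% against 57.3% of all genes. The median was 0.27 for the members and 0.05 for all genes, and it was 0.42 and 0.20 after median centring. With the mean of all probe sets for each gene 9 of 16 members were above 0 and 7 below. A second probe set of a gene differed with an SD of 0.43 in this ratio.

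Foxl2 at 1.05, Foxc2 at 0.92 and Foxa2 at 0.57 had the highest ratios in brain. Foxc2 read 497 in FoxO6-/- and 263 in WT brain, which is 1.89-fold, and it passed 2-fold after median centring. Foxa2, which patterns the floor plate, read 126 and 84.7 in brain and was below the floor over the 4 arrays. Foxp2 followed at 0.45, where 4 of its 5 probe sets were above 0 and the dimmest gave -0.79. The lowest ratios were -0.59 for Foxm1, -0.28 for Foxn3 and -0.11 for Foxa1. Other Foxn3 probe sets above the floor gave 0.03, 0.07 and -0.22 in brain.

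**Figure D4:**
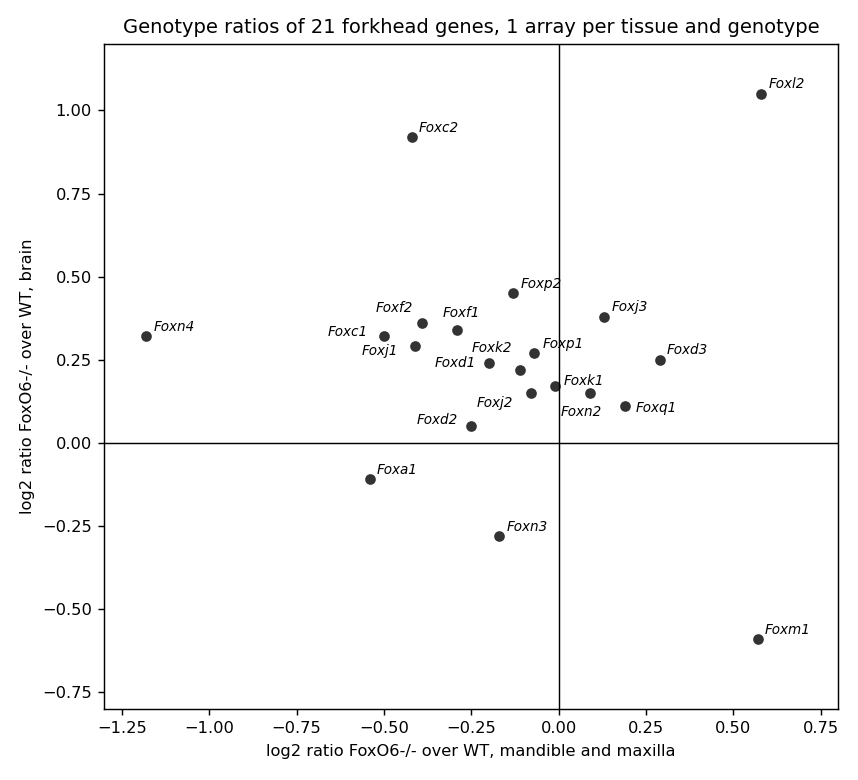
Log2 ratio of FoxO6-/- over WT in jaw (horizontal axis) against brain (vertical axis), 1 point per forkhead gene at or above the floor, from 1 array per group. The upper left field, lower in FoxO6-/- jaw and higher in FoxO6-/- brain, holds 13 of 21 genes, and Foxm1 is the only one at the lower right.

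The members were split unevenly between the 4 pairs of signs. In 13 of 21 (61.9%) the signal was lower in FoxO6-/- jaw and higher in FoxO6-/- brain, a pattern found in 28.3% of all genes. They were Foxc1, Foxc2, Foxd1, Foxd2, Foxf1, Foxf2, Foxj1, Foxj2, Foxk1, Foxk2, Foxn4, Foxp1 and Foxp2. Another 5 (Foxd3, Foxj3, Foxl2, Foxn2 and Foxq1) were higher in both, against 29.0% of all genes. Foxa1 and Foxn3 were lower in both, against 23.5%, and Foxm1 alone was higher in jaw and lower in brain, against 19.2%. These placements rest on the probe set used for each gene. The second Foxq1 probe set gave -0.49 in brain, and of 4 Foxn3 probe sets 2 were higher and 2 lower in each tissue. Among the 13, both Foxc1 probe sets had the same signs, while Foxk2, Foxp1 and Foxp2 each had at least 1 of another sign.
Several of the 13 had ratios near 0 in jaw, such as Foxk1 at -0.01, Foxp1 at -0.07 and Foxj2 at -0.08, and after quantile normalization 12 members had this pattern (27.0% of all genes). After median centring 9 had it (24.4% of all genes), 8 of the 13 and Foxa1. Among genes with a second probe set its sign matched in 61.0% of genes in jaw and in 65.8% in brain.

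The mesenchymal members read as follows in this pattern. Foxf1, with signals given above, was 0.817-fold of WT in jaw and 1.27-fold in brain. Foxf2 was 0.762-fold and 1.28-fold. Foxc1 was 0.705-fold and 1.25-fold. Each of them was thus under WT in jaw and over WT in brain by less than 2-fold. Foxd1, which marks stroma of the kidney and the precursors of mural cells, read 542, 624, 751 and 638, that is 0.868-fold and 1.18-fold. Foxd2, expressed in facial mesenchyme, read 185, 219, 194 and 187, 0.843-fold and 1.04-fold.

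Marker genes of cartilage, nasal lining and neurons were uneven in the same directions, and those of endothelium in the opposite ones. All 8 cartilage markers were lower in FoxO6-/- jaw (median log2 ratio -1.07) and higher in FoxO6-/- brain (median 0.87), with summed signals of 22471, 39121, 43796 and 25016. Genes of the nasal lining were lower in jaw for 6 of 7 and higher in brain for 6 of 6, with sums of 10758, 27235.5, 17637 and 2762 over 8 genes. All 5 lens markers were 2-fold or more higher in FoxO6-/- brain. Neuron markers were lower in FoxO6-/- jaw for 6 of 6 and higher in brain for 7 of 7. Markers of skin and oral epithelium were higher in FoxO6-/- for 6 of 6 in both tissues, with sums of 99008, 68820.1, 21945 and 15793. Those of meninges were higher in FoxO6-/- jaw for 4 of 5 and in FoxO6-/- brain for 5 of 5, and those of bone matrix for 3 of 5 in each tissue. Among choroid plexus and ependyma markers 2 of 3 were lower in FoxO6-/- jaw and 3 of 5 higher in FoxO6-/- brain. The part of these cell types in the forkhead ratios was not tested. The markers of pericytes summed to 12181, 13721, 10504.5 and 9790, and those of endothelium to 4295, 3867, 3270 and 3949. Of the 5 endothelial genes 4 were higher in FoxO6-/- jaw and 5 were lower in FoxO6-/- brain.

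**Figure D5:**
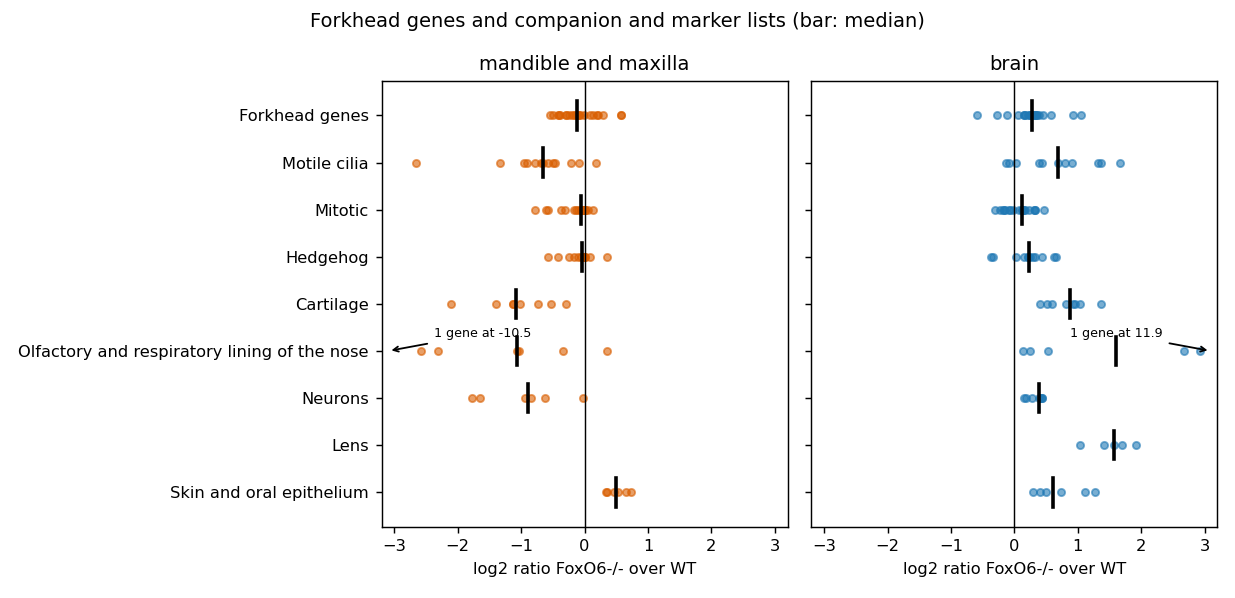
Log2 ratio of FoxO6-/- over WT in jaw (left) and brain (right) for the forkhead genes and for companion and marker lists, 1 point per gene at or above the floor in that tissue, with the median as a bar; 1 gene of the nasal lining lies outside the axis in each panel and its value is written there. The cartilage medians are -1.07 and 0.87, and those of the forkhead genes -0.12 and 0.27.

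A list of motile cilia genes, not all of which need be targets of Foxj1, could be read beside it. Foxj1 was 0.752-fold of WT in FoxO6-/- jaw and 1.22-fold in FoxO6-/- brain. Of the motile cilia genes above the floor 12 of 13 were lower in FoxO6-/- jaw, with a median of -0.66, and 9 of 11 were higher in FoxO6-/- brain, with a median of 0.68. In jaw Ccdc40 (-2.65) and Rsph4a (-1.34), which build the ciliary axoneme, had the lowest ratios, and Tppp3 (0.18) and Rfx3 (-0.09) the highest. Ccdc40 read 28.9 in FoxO6-/- jaw, which is below the floor, and 182 in WT jaw. Of 12 tested between tissues 1 passed in limma, where 15.2% of all genes did. It was Cfap43, higher in jaw by 1.79 ± 0.20 on the log2 scale (adjusted p of 0.0233 in limma) and named after its values were seen. Its brain signals of 72.7 and 75.8 were below the floor. After quantile normalization or median centring 2 of the 12 passed, 1 in each direction. The nasal lining, whose marker sums are given above, bears motile cilia, and its part was not tested.

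Foxm1 was 1.48-fold of WT in FoxO6-/- jaw and 0.663-fold in FoxO6-/- brain. Of 19 mitotic genes, which Foxm1 is known to drive, 4 were higher in FoxO6-/- jaw, with a median of -0.05, and 11 were higher in FoxO6-/- brain, with a median of 0.12. The lowest ratios in jaw were those of Cdc25c (-0.78) and Nek2 (-0.60), and the highest those of Top2a (0.14) and Cdk1 (0.05). None of the 19 passed between tissues or between genotypes in limma, and none was 2-fold apart between genotypes in either tissue.

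Hedgehog signaling lies upstream of Foxf1, Foxf2 and Foxd1 in facial mesenchyme. Of 12 hedgehog genes above the floor 8 were lower in FoxO6-/- jaw, with a median of -0.04, and 10 were higher in FoxO6-/- brain, with a median of 0.24. In jaw the ends of the list were Disp1 (-0.57) and Boc (-0.42) below and Gas1 (0.36) and Ptch1 (0.08) above. Only Hhip, named after its values were seen, passed between tissues, where 15.2% of all genes did. It was 0.90 ± 0.15 higher in jaw on the log2 scale (adjusted p of 0.0463 in limma), and it no longer passed after median centring.

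Several members lie next to each other in the genome. Foxq1, Foxf2 and Foxc1 are neighbours on chromosome 13 with no protein coding gene between them. Their tissue differences were 1.0, 0.59 and -0.01, and their genotype ratios 0.19, -0.39 and -0.50 in jaw and 0.11, 0.36 and 0.32 in brain. On chromosome 8 Foxf1 is followed, after Mthfsd, by Foxc2 and Foxl1. Their tissue differences were 1.82 for Foxf1 and -0.78 for Foxc2, the latter not called. Foxl1, a gene of gut mesenchyme, was below the floor with a highest signal of 6.04. Foxd2 and Foxe3 adjoin on chromosome 4, and Foxe3, a gene of the lens, read 6.35 or less on all arrays, beside the lens marker sums given above.

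For the remaining 4 members the genotype ratios lay between -0.08 and 0.38. Foxj3, a widely expressed factor, read 2684, 2455, 3652 and 2803, with ratios of 0.13 in jaw and 0.38 in brain. Foxk1, a relative of Foxk2, read 728, 732, 678 and 605. Both were far above the floor on each array. Foxj2 read 666, 702, 720.1 and 648. Foxn2 read 1377, 1293, 1151 and 1038, with ratios of 0.09 and 0.15. All of these ratios lay within the spread between probe sets.

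The 14 members below the floor over the 4 arrays were listed by their highest signal. Of the Foxa genes Foxa2 reached 128 and Foxa3, a liver factor, 84.7. Of genes with roles in the nervous system Foxb1 reached 78.6, Foxb2 9.88 and Foxd4 39.2. Foxh1, the partner of Smad proteins in early embryos, reached 60.3, and Foxi1, a gene of acid secreting cells, 72.2. Foxp4 reached 107. Foxp3, which defines regulatory T cells, reached 37.5, beside T cell markers that summed to 243, 178, 171 and 57.8 over 5 genes. Foxe3, Foxl1 and Foxl2os are given above.
The last 2 of the 14 were at or above the floor in jaw. Foxn1, needed in thymus and hair epithelium, read 107 and 131 in jaw and 26.9 and 18.0 in brain, and Foxs1, a gene of pericytes, read 115 and 99.4 in jaw and 37.9 and 49.8 in brain. Both were higher on each jaw array, but neither entered the test.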

How the data were processed

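The deposited values are MAS5 signals, a linear intensity per probe set, which the authors had scaled to a common trimmed mean (2% left out at each end), and they were used as they are. No MAS5 version is given in the sources used here. Of 45101 probe sets 64 are controls, 34945 have 1 gene and 932 have several in the platform annotation. Symbols of 34741 were matched to RefSeq (GRCm38.p6), and 0 changed.

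A gene entered a comparison when the mean of its compared signals reached the floor (the 50th percentile, 101). Log2 signals of 12569 genes were fitted in limma 3.58.1 (R 4.3.3) with tissue and genotype as terms, 1 residual degree of freedom and 2.40 prior degrees of freedom, with two-sided tests and Benjamini-Hochberg adjustment at 0.05. Genotype ratios within a tissue were counted at 2-fold. The number of arrays limits the precision. Tables were handled in Python 3.11.15 with pandas 2.3.3.

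The members and gene lists were chosen with earlier results of these data known. All members were named, in full those past a test or a fold and the 3 highest and lowest ratios per comparison. From each companion list up to 4 genes were named, the 2 highest and 2 lowest. The alternatives concerned scaling (quantile or median), the floor (none, or the 75th percentile of 524, or dim signals set to it), the probe set (averaged, gene-specific or every one), the fit (variance trend, 1 term only) and each array left out. With an array left out, tissue or genotype was the only term of the fit.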

Additional observations from a re-analysis of the deposited data

Results flagged for a closer look

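Foxm1 had opposite genotype ratios in the tissues, 0.57 on the log2 scale in jaw and -0.59 in brain. The difference between the tissues was not tested, since each ratio rests on 1 array per group. Of the members, 13 were lower in FoxO6-/- jaw and higher in FoxO6-/- brain, and the difference between the tissues was not tested for them either.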

How the results depend on the processing

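The count of 3 of 21 members called between jaw and brain (1911 of all genes) became 0 of 35 with no floor. There 0 of 18193 genes were called, and 3824 had an unadjusted p under 0.05 in limma. When probe sets were averaged 1 of 14 members was called, beside 1125 of all genes. With every probe set 5 members were called from 40 member probe sets, beside 2694 called in all. With no floor Foxf1 and Foxp2 had adjusted p-values of 0.150 and 0.137 in limma. In the other alternatives that kept all 4 arrays and tested them, they stayed under 0.05. Foxf1 fell below the floor with averaged probe sets and with the higher floor, and was not tested there. Foxq1 lost the call in 6 of 12 alternatives, in which its adjusted p was 0.0153 to 0.167 in limma. The genotype count over both tissues was 0 in every alternative. The count of members 2-fold apart in jaw (0) became 6 of 35 with no floor (15.6% of all genes) and 3 of 16 when probe sets were averaged (3.42% of all genes). In brain (1) it became 2 of 21 with median centring (3.25% of all genes), 4 of 35 with no floor (15.5%), and 0 with the higher floor or averaged probe sets. The count of 13 members lower in FoxO6-/- jaw and higher in FoxO6-/- brain became 6 of 10 with the higher floor (26.5% of all genes) and 6 of 14 with averaged probe sets (26.3%), of which 5 were among the 13; these alternatives were chosen after seeing the data. The genotype difference of Foxn4 over both tissues turned to 0.11 with low values raised to the floor and, with 1 array left out, lay between -1.28 and 0.42 (the latter without FoxO6-/- jaw), and that of Foxj3 turned to -0.16 with averaged probe sets. With 1 array left out the others lay between -0.64 and -0.01 (Foxa1), -0.36 and -0.08 (Foxn3), 0.03 and 0.48 (Foxj3), 0.17 and 0.37 (Foxd3) and 0.52 and 1.11 (Foxl2). Such fits held genotype as the only term, so differences between the tissues entered these ranges too. Where not stated, the cause was not tested. No pairing by animal was possible because each group has 1 array, and the tissues were matched by genotype only. The genotype term compares the tissues within each genotype, and without it 4 of 21 members and 2707 genes were called between tissues. Signals near the floor of 101 limit Foxf1, Foxf2, Foxj1 and Foxq1 in brain and Foxn4 in jaw. In brain such signals also limit the probe sets of Foxk2 and Foxp1 that were called higher in jaw.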
